A study of Danio rerio with 4 samples.

Results

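Sox and basic helix-loop-helix (bHLH) neurogenesis factors were followed in the adult zebrafish brain after cold acclimation. Members were taken by gene symbol alone, with no measured value. The symbols were those of the Sox, NeuroD, Neurogenin, Her, Hes, Hey, Id, Ascl, Olig, Atoh, Nhlh and Tcf families in the platform annotation. They gave 58 genes, represented by 84 probe sets, of the 8793 genes that had a probe set with 1 symbol. Each gene was represented by the probe set with the highest mean log2 signal over the arrays.

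Cold-acclimated (cold) fish were brought stepwise to 10°C and held there for 10 days, and normal fish were kept at 28°C, the laboratory breeding temperature from which the cold fish also came. Adult fish of both sexes were used, and their strain was not given in the sources used here. Each 1-colour Affymetrix Zebrafish Genome Array received RNA pooled from several brains, and 2 arrays per condition were analysed: cold 1 and cold 2, and normal 1 and normal 2. A cold and a normal array that share a number form a set. The study's text describes RNA sets from separate acclimation experiments, including a further set not analysed here. Which experiment an array belongs to was not given in the sources used here, and the p-values cover variation among these pools alone.

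In the vertebrate brain, SoxB1 proteins hold neural progenitors in an undifferentiated state, and Her, Hes and Hey repressors, many of them targets of Notch signalling, block the proneural bHLH activators. Id proteins lack a DNA-binding region and trap the E proteins with which those activators pair. Proneural factors of the Ascl and Neurogenin families start neuronal differentiation, NeuroD and SoxC factors carry it on, and Olig2 and Sox10 direct the oligodendrocyte lineage. The adult zebrafish brain keeps radial glia that divide and form neurons throughout life.

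Arrays did not group by their labels. Over the 9301 probe sets kept by a filter on low signal, a ratio of 2 or more separated cold 1 from cold 2 at 1105 probe sets and normal 1 from normal 2 at 1414, whereas it separated cold 1 from normal 2 at 260 and cold 2 from normal 1 at 675. Within the sets it separated cold 1 from normal 1 at 1295 and cold 2 from normal 2 at 579. Labels were kept as given, and every gene is therefore given per array. Were the labels of 1 set exchanged, each direction printed for that set would turn, and the differences over both sets would be other values. The median signal of an array lay between 96.3 and 101.8, so the scaling was left as deposited. Markers of other tissues also varied between arrays. All 4 red blood cell markers were higher on cold 1 than on normal 1 and lower on cold 2 than on normal 2, and their summed signal was 19392 and 11871 on cold 1 and cold 2, against 13613 and 20615 on normal 1 and normal 2. The 4 muscle markers summed to 2613 on cold 1 and to between 552 and 634 on the other arrays. Markers of the brain were present, with 7 of 7 measured neuronal markers and 7 of 7 radial glia markers above the filter, elavl3 and gfap among them.

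Of the 58 genes, 36 (62.1%) passed the filter, a mean log2 signal of at least 6.22 (a signal of 74.5), against 68% of all genes. Role groups set by gene held 18 of 24 progenitor genes, 10 of 16 proneural and neuronal genes and 4 of 4 oligodendrocyte lineage genes above the filter. Also above it were 1 of 2 E proteins, 2 of 3 HMG-box partners of beta-catenin in Wnt signalling (the tcf7l genes, which share only the tcf name with the bHLH factors) and 1 of 9 other genes. The 22 genes below the filter had signals between 14.0 and 88.2 on every array and were not tested. They include the proneural genes neurog1, neurog3, atoh1a, atoh7 and ascl1b, as well as neurod4, the segmentation genes her1 and her7 and the endodermal genes sox17 and sox32. None of the 22 reached a 2-fold ratio within a set.

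**Figure D1:**
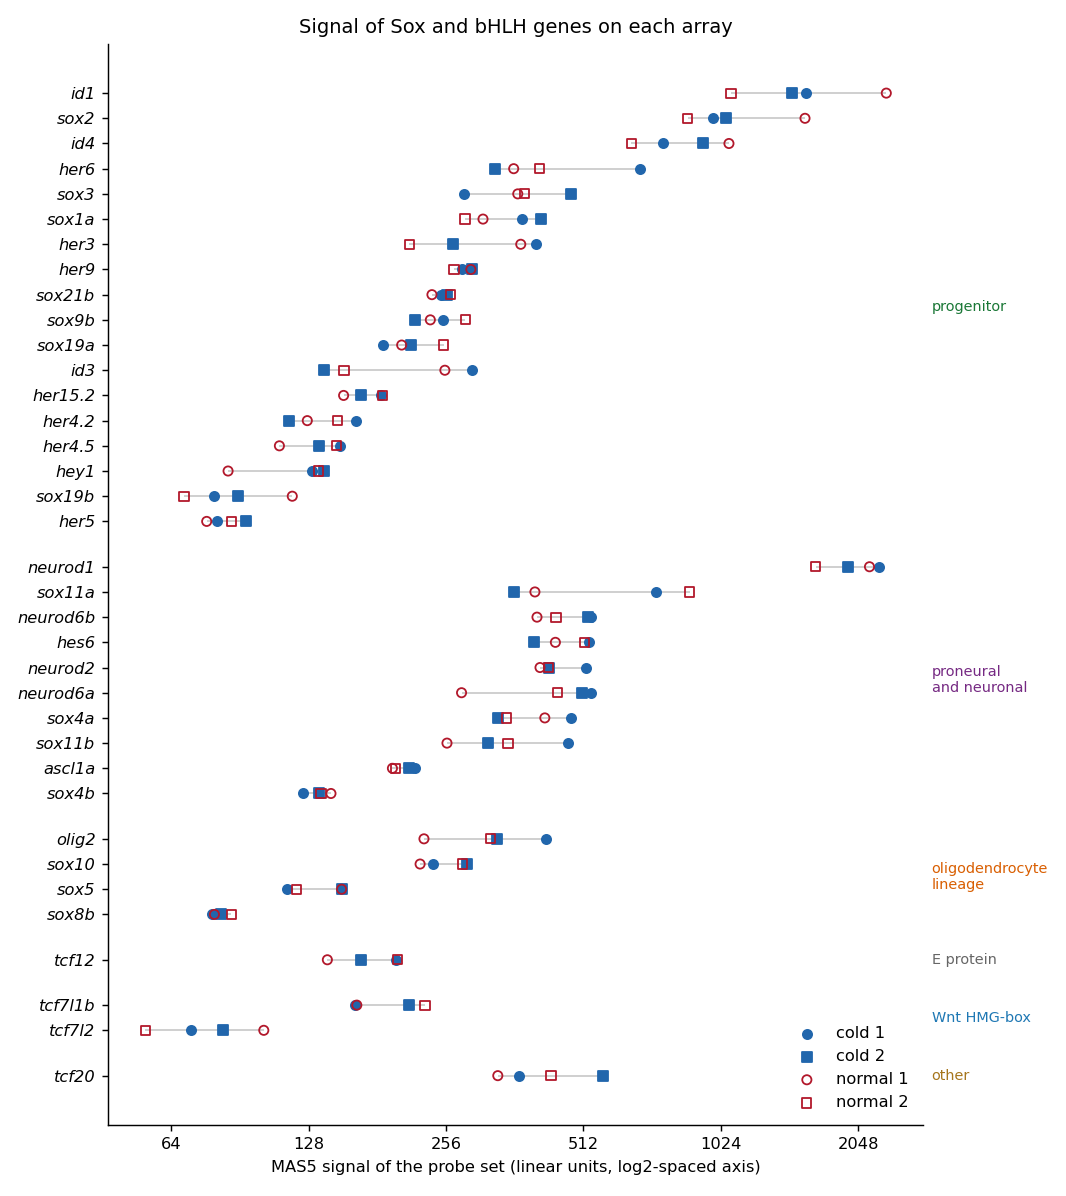
MAS5 signal (x axis, log2-spaced) of the 36 member genes above the filter on cold 1, cold 2, normal 1 and normal 2. Genes are grouped by role and sorted by mean signal within a role. Cold arrays are filled and normal arrays open, circles are arrays numbered 1 and squares arrays numbered 2. The arrays of a condition often lie apart, as for sox11a, id1, id3 and her6.

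None of the 36 genes differed between cold and normal arrays at an adjusted p under 0.05 from limma (0% of the 9301 probe sets were called in either direction). At an unadjusted p under 0.05, 0 of the 36 genes and 46 of 9301 probe sets passed, 18 of these (0.194%) higher and 28 (0.301%) lower in cold. The fitted log2 difference, cold minus normal, lay between -0.20 for sox11a and 0.56 for neurod6a, with standard errors of 0.25 to 0.57. It was larger than its own standard error at 3 of the 36 genes, neurod6a, olig2 and sox1a, and at 12% of the kept probe sets. The median difference over the 36 genes was 0.05, against 0.04 over all kept probe sets. With whole-brain RNA, fewer cells of a type and less RNA per cell cannot be told apart.

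Role groups had medians close to the median of all probe sets. The median log2 difference was 0.14 for the 10 proneural and neuronal genes, of which 7 had a positive value, and 0.03 for the 18 progenitor genes, of which 12 had one (7 of 18 after quantile normalization). For the 4 oligodendrocyte lineage genes it was 0.01, with 2 positive. Of all 9301 kept probe sets, 5370 had a positive value. The signs of the last pair of medians depend on the scaling, since quantile normalization gave -0.02 for each, while the proneural and neuronal median stayed positive at 0.08. Genes are not replicates, and no test was made between the groups.

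**Figure D2:**
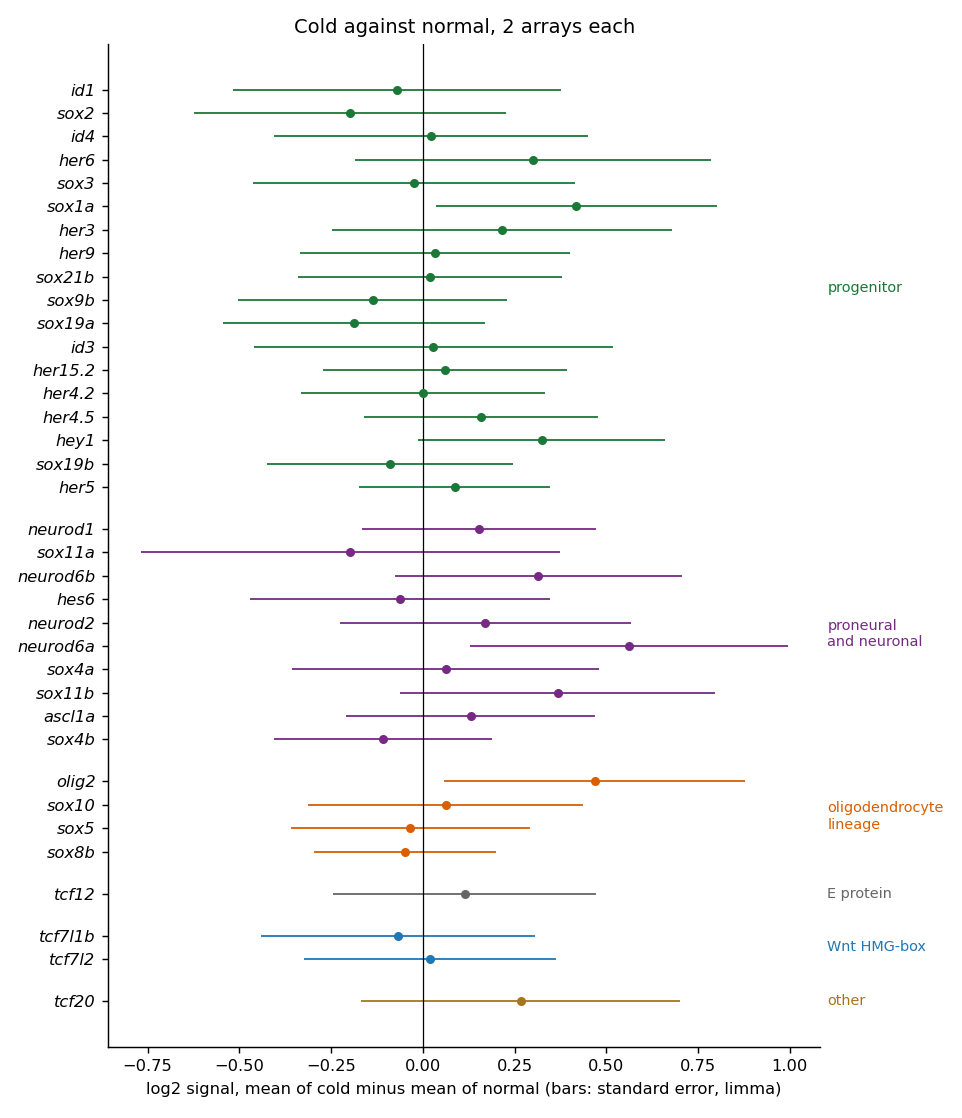
Difference in log2 signal, mean of the cold arrays minus mean of the normal arrays (x axis), with its standard error from limma, for the 36 genes by role group (n = 2 arrays per condition). All but neurod6a, olig2 and sox1a have bars that cross 0. The difference was larger than its standard error at 12% of all kept probe sets.

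Among the progenitor factors, the SoxB1 genes did not share a direction. The sox2 gene encodes the factor that keeps neural stem cells in their progenitor state. It had signals of 984 and 1050 on cold 1 and cold 2, against 1567 and 866 on normal 1 and normal 2. Normal 1 was the highest array and normal 2 the lowest, with both cold arrays between them. The 3 probe sets of sox2 were above the filter, and all had a lower signal on cold 1 than on normal 1. Their fitted log2 differences were -0.20 at the chosen probe set (standard error 0.43) and -0.36 and -0.44 at the others (standard errors 0.50 and 0.33). At the last, both cold arrays (108 and 146) were below both normal arrays (157 and 183.5), with an unadjusted p = 0.23 from limma. None of the 3 was called. The related gene sox3 had signals of 280 and 482 on cold 1 and cold 2, against 368 and 380 on normal 1 and normal 2, so that here the cold arrays enclosed the normal ones. In sox19b the signals were 79.2 and 89.7 on the cold arrays, against 117.8 and 68.2 on the normal arrays, the order seen in sox2. Of the 5 SoxB1 genes, sox2, sox3 and sox19b had opposite directions in the sets, sox19a was lower on the cold array in both and sox1a was higher in both. In set 1, 4 of the 5 were lower on the cold array, and in set 2, 4 were higher. The fitted log2 difference was negative at 4 and positive at sox1a, with the same signs after quantile normalization and median centring.

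The sox1a gene, of the same subfamily, had signals of 375 and 413 on cold 1 and cold 2, against 308 and 282 on normal 1 and normal 2. Both cold arrays were above both normal arrays, 1.22-fold in set 1 and 1.47-fold in set 2. The fitted log2 difference was 0.42 (standard error 0.38, unadjusted p = 0.31 and adjusted p = 1.0 from limma), and it stayed between 0.35 and 0.49 when any 1 array was left out. At the other probe sets of sox1a above the filter the conditions overlapped. A further probe set had 141 and 133 on the cold arrays, against 153 and 106 on the normal arrays, and was lower on cold 1 than on normal 1. The last had 123 and 63.1 on the cold arrays, against 91.8 and 53.7 on the normal arrays. The SoxB2 gene sox21b, whose protein counteracts SoxB1 factors, had 249.8 and 257 on the cold arrays, against 238 and 262 on the normal arrays, 1.03-fold apart within cold and 1.1-fold within normal. The radial glia gene sox9b had 252 and 219 on the cold arrays, against 236 and 282 on the normal arrays, and its paralog sox9a was below the filter.

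Id genes, which restrain bHLH activators and respond to BMP signalling, differed more between arrays of a condition than between conditions. The signals of id1, a gene of quiescent radial glia in the zebrafish forebrain, were 1575 and 1467 on cold 1 and cold 2, against 2362 and 1078 on normal 1 and normal 2. The normal arrays were 2.19-fold apart and the cold arrays 1.07-fold. For id4 the signals were 766 and 937.5 on the cold arrays, against 1067 and 652 on the normal arrays. In both genes the cold arrays lay between the normal arrays. The third member, id3, had 292 and 138.5 on cold 1 and cold 2, against 254 and 153 on normal 1 and normal 2, so that in each condition array 1 was the higher. All 3 genes had opposite directions in the sets.

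Hairy/E(spl) and Hey repressors of the progenitor group, which leaves out her1 and her7, had signals above the filter at 8 of 12 genes. Fitted differences at the chosen probe sets were at or above 0 at all 8, from 0.00 for her4.2 to 0.32 for hey1. They were positive at 5370 of the 9301 kept probe sets. The sets did not share this direction: 7 of the 8 genes were higher on the cold array in set 1 and 4 in set 2. Directions were opposite in the sets at 5 of the 8. However, her4.2 was negative after quantile normalization and after median centring, and her9 after quantile normalization. A further probe set of her4.2 above the filter had a fitted difference of -0.08. Below the filter and not tested, her2, her1 and her7 had both cold arrays below both normal arrays, and hey2 had both above. The her6 gene encodes a repressor of the Hes1 type that keeps progenitors from differentiating. It had signals of 681 and 328 on cold 1 and cold 2, against 360 and 409.6 on normal 1 and normal 2. Only cold 1 stood out, at 2.08-fold cold 2. Its relative her9 varied little, with 277 and 292 on the cold arrays, against 290.0 and 267 on the normal arrays. In hey1, a Notch target, the signals were 130 and 138 on the cold arrays, against 85.2 and 134 on the normal arrays. The difference there lay in normal 1, and the fitted value of 0.32 (standard error 0.34, adjusted p = 1.0 from limma) was -0.0046 without that array.

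The Notch targets of the her4 and her15 type are near-identical copies in clusters, so that their probe sets can take signal from several copies. The probe set of her4.2 had 162.5 and 116 on cold 1 and cold 2, against 127 and 148 on normal 1 and normal 2. That of her15.2 had 185 and 167 on the cold arrays, against 153 and 186 on the normal arrays. In both, the highest and the lowest arrays belonged to different sets, and the conditions overlapped.

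Proneural and neuronal factors included neurod6a, the gene with the largest positive difference of the 36, ahead of olig2 and sox1a of the other groups. All 4 NeuroD genes above the filter, neurod1, neurod2, neurod6a and neurod6b, were higher on the cold array in both sets, as were 12 of the 36 genes (33.3%) and 17.4% of the kept probe sets. After quantile normalization neurod1 was no longer higher in set 1. The neurod6a gene, a factor of differentiating forebrain neurons, had signals of 532.5 and 509 on cold 1 and cold 2, against 277 and 449.7 on normal 1 and normal 2. Both cold arrays were above both normal arrays, and normal 1 was the low array. The log2 difference was 0.56 (standard error 0.43, unadjusted p = 0.24 and adjusted p = 1.0 from limma), and 0.21 without normal 1. The paralog neurod6b had 533 and 525 on the cold arrays, against 405 and 446 on the normal arrays. Here the arrays within a condition lay closer, 1.01-fold apart in cold and 1.1-fold in normal, and the log2 difference was 0.32 (standard error 0.39, adjusted p = 1.0 from limma). Without any 1 array it lay between 0.25 and 0.38.

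For neurod2 the signals were 519 and 431 on cold 1 and cold 2, against 411 and 429 on normal 1 and normal 2. The ratio of cold to normal was 1.26 in set 1 and 1.0 in set 2. The gene neurod1, a factor of granule neurons and endocrine cells, had 2278.5 and 1947 on the cold arrays, against 2170 and 1654 on the normal arrays, and the conditions overlapped. The proneural gene ascl1a had 219 and 212 on the cold arrays, against 195 and 198 on the normal arrays. These values do not overlap, yet the log2 difference was 0.13 (standard error 0.34, adjusted p = 1.0 from limma). Among neuronal markers that encode no such factor, 7 of 7 were higher on cold 1 than on normal 1 and 7 of 7 lower on cold 2 than on normal 2, as in gap43, a protein of growing axons (3238 and 1601 on the cold arrays, against 1709 and 2784 on the normal arrays). The NeuroD genes shared the direction of these markers in set 1 but not in set 2. The markers' part in the NeuroD values was not tested.

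In all, both cold arrays were above both normal arrays at 6 of the 36 genes, sox1a, ascl1a, neurod2, neurod6a, neurod6b and olig2, and at 9.2% of the kept probe sets. Both were below at 1 gene, sox4b, and at 6.45% of the probe sets. Of the 6, 4 are proneural and neuronal factors, and the same 6 were found after quantile normalization and median centring. The gene sox4b was found after neither. After quantile normalization sox9b had both cold arrays below both normal arrays, and after median centring no gene did. None of these differences passed the test. At sox1a, the other probe sets above the filter overlapped between conditions. The genes with separated arrays were singled out after their values had been seen.

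SoxC factors, which act in newly formed neurons, included sox11a, the only gene of the 36 with arrays at least 2-fold apart in both conditions. It had signals of 739 and 361 on cold 1 and cold 2, against 401 and 875 on normal 1 and normal 2. Cold 1 and normal 2 were high and the other two arrays low. Its signal on cold 1 was 1.84 times that on normal 1, and its signal on cold 2 was 0.412 times that on normal 2, which made it the only 1 of the 36 genes with a 2-fold ratio in either set (13.9% of the kept probe sets reached this in set 1 and 6.23% in set 2). Its log2 difference was -0.20 (standard error 0.57, adjusted p = 1.0 from limma), and it was positive without normal 2 (0.37) or without cold 2 (0.32). The red blood cell markers were also high on cold 1 and normal 2, as was the summed signal of the 7 neuronal markers (22165 and 12822 on cold 1 and cold 2, against 13060 and 19056 on normal 1 and normal 2). Of these 7, snap25a, gap43, gad2 and stmn1b had that order and syt1a, elavl3 and elavl4 did not. The markers' part in this result was not tested. The paralog sox11b had 474 and 316 on the cold arrays, against 257 and 349.9 on the normal arrays, and the log2 difference was 0.37 (standard error 0.43, adjusted p = 1.0 from limma). Here cold 1 was highest and normal 1 lowest, and the difference was 0.07 without cold 1 and 0.66 without cold 2.

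**Figure D3:**
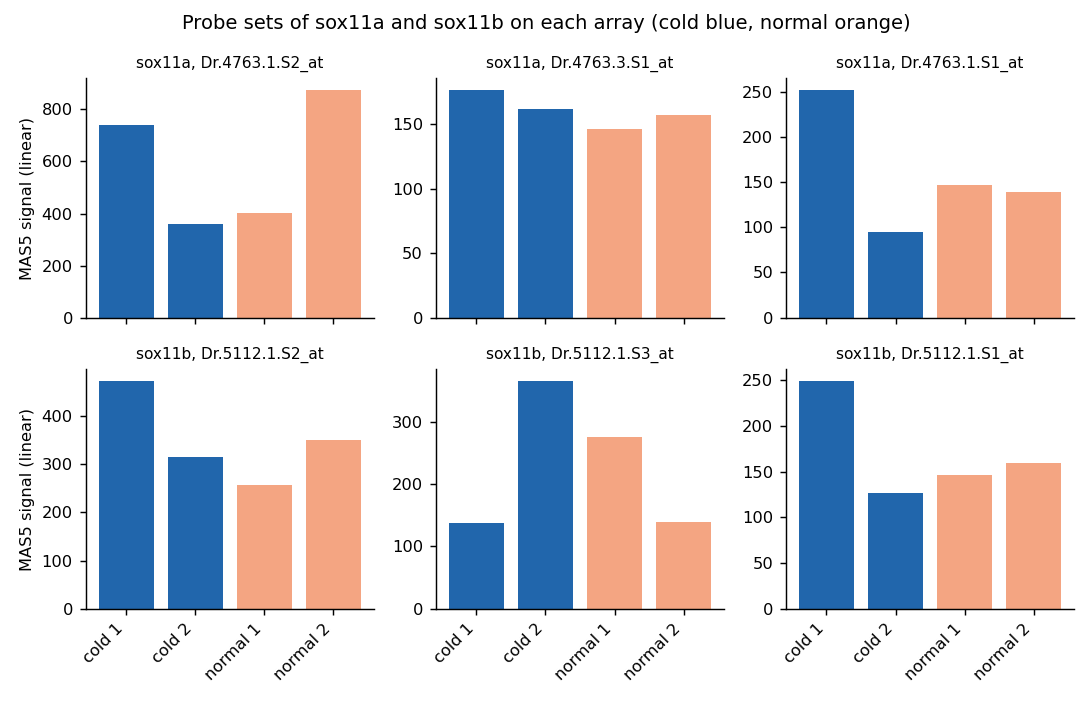
Signal (y axis, linear, own scale per panel) of the 3 probe sets of sox11a and the 3 of sox11b on the cold arrays (blue) and normal arrays (orange). Bars are single arrays. In sox11b, 1 probe set runs against the other two, with 138 and 366 on cold 1 and cold 2, against 275.5 and 139 on normal 1 and normal 2.

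Probe sets of 1 gene disagreed in several cases. Of 7 genes with several probe sets above the filter, 4 had probe sets in both directions in set 1 (sox11b, sox1a, sox9b and tcf12) and 5 in set 2 (sox11a, sox11b, sox2, sox9b and tcf12). In sox11b, the probe set with the next lower mean signal had 138 and 366 on cold 1 and cold 2, against 275.5 and 139 on normal 1 and normal 2, a 2.64-fold ratio in set 2 where the chosen probe set had 0.902. In sox11a, 1 probe set varied little, from 162 to 177 on the cold arrays and from 146.5 to 157.5 on the normal arrays, unlike the chosen one. Another had 252 and 95.2 on cold 1 and cold 2, against 147 and 139 on normal 1 and normal 2. Its directions in the sets were those of the chosen one. The fitted log2 differences of these other probe sets were 0.16 and 0.11, against -0.20 at the chosen one. The 2-fold ratio of sox11a in set 2 thus rests on 1 of its 3 probe sets.

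The remaining SoxC genes and hes6 varied less. The sox4a gene had 480 and 332 on cold 1 and cold 2, against 421 and 347 on normal 1 and normal 2, and sox4b had 124 and 135 on the cold arrays, against 143 and 136 on the normal arrays. The hes6 protein, unlike most of its family, promotes neuronal differentiation. Its gene had 527 and 398.5 on the cold arrays, against 444.5 and 515 on the normal arrays, with cold 1 and normal 2 the high arrays as in sox11a.

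Oligodendrocyte lineage factors were measured at olig2, sox10, sox5 and sox8b. The olig2 gene, which specifies oligodendrocyte precursors, had signals of 424 and 331 on cold 1 and cold 2, against 229 and 320 on normal 1 and normal 2. Both cold arrays were above both normal arrays, 1.85-fold in set 1 and 1.03-fold in set 2, and normal 1 was the low array. The log2 difference was 0.47 (standard error 0.41, unadjusted p = 0.29 and adjusted p = 1.0 from limma) and 0.23 without normal 1. The sox10 gene, needed for myelin gene expression, had 239 and 285 on the cold arrays, against 225 and 279 on the normal arrays, so that array 2 was higher in each condition. In sox5, a SoxD gene that in mice restrains oligodendrocyte maturation, the signals were 115 and 151 on the cold arrays, against 151 and 120 on the normal arrays, so that 1 cold and 1 normal array were high. For sox8b they were 78.5 and 82.0 on the cold arrays, against 79.5 and 86.6 on the normal arrays, close to the filter. Myelin markers did not have the order of olig2 over all the arrays. Like olig2, those measured were higher on cold 1 than on normal 1. Unlike olig2, they were lower on cold 2 than on normal 2. Their part in the values of olig2 was not tested. The claudin gene cldnk had 1913 and 1224 on the cold arrays, against 1216 and 1934 on the normal arrays, and mbpa, the gene of myelin basic protein, had 10605 and 8020 on the cold arrays, against 8852 and 9454 on the normal arrays.

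E proteins and Wnt effectors gave no call either. The E protein gene tcf12 had 198 and 167 on cold 1 and cold 2, against 141 and 200.5 on normal 1 and normal 2, at its brightest probe set. A further probe set of tcf12 had 99.5 and 129 on the cold arrays, against 167 and 172 on the normal arrays, with both cold arrays below both normal arrays (log2 difference -0.59, standard error 0.32, unadjusted p = 0.11 and adjusted p = 1.0 from limma). This was the smallest p among the 49 probe sets of these genes above the filter, and the 4 probe sets of tcf12 did not share a direction. The Wnt effector genes differed from each other: tcf7l1b had 161 and 212 on the cold arrays, against 163 and 230 on the normal arrays, with array 2 higher in each condition. In tcf7l2 the signals were 70.5 and 83.2 on the cold arrays, against 102 and 56.1 on the normal arrays, with both cold arrays between the normal ones. The gene tcf20, whose product is neither a Sox nor a bHLH factor, had 370.0 and 565 on the cold arrays, against 332 and 435 on the normal arrays.

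Within the sets, 20 of the 36 genes (55.6%) had opposite directions, against 69.6% of the kept probe sets. In set 1 the log2 ratio of cold 1 to normal 1 lay between -0.67 for sox2 and 0.94 for neurod6a, with medians of 0.08 for progenitor genes and 0.29 for proneural and neuronal genes, beside 0.06 for all kept probe sets. The oligodendrocyte lineage median was 0.04. In set 2 the ratio of cold 2 to normal 2 lay between -1.28 for sox11a and 0.57 for tcf7l2, with medians of 0.07 for progenitor genes, -0.00 for proneural and neuronal genes and 0.04 for oligodendrocyte lineage genes, beside 0.00 for all. A set holds 1 array per condition, so these ratios have no replicate.

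**Figure D4:**
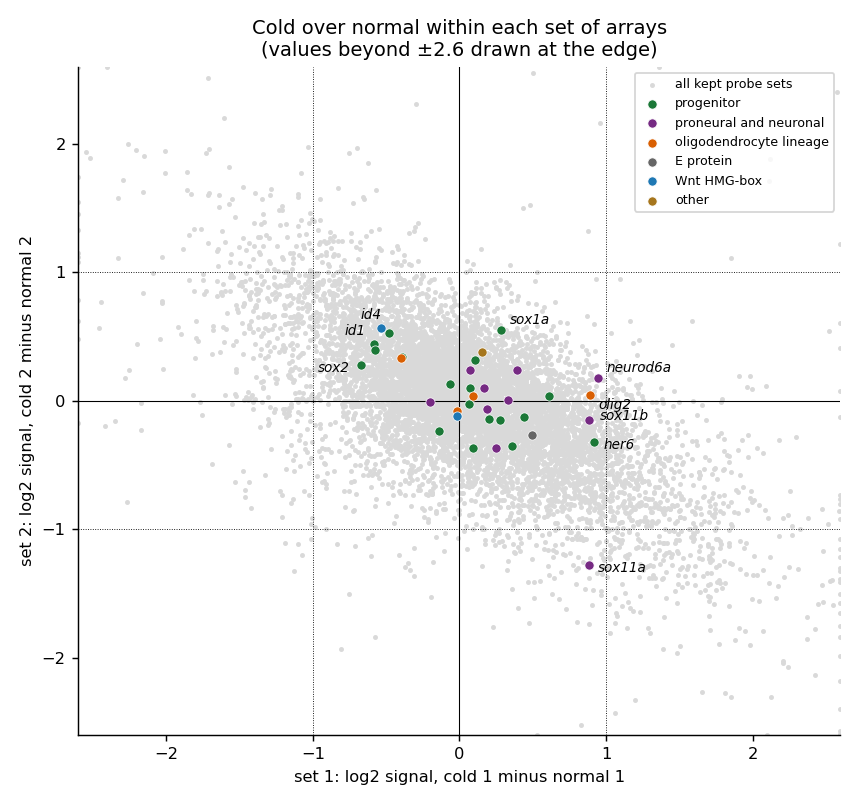
Log2 ratio of cold 1 to normal 1 (x axis) and of cold 2 to normal 2 (y axis) for the 36 genes, coloured by role, over all 9301 kept probe sets (grey). Dotted lines mark a 2-fold ratio. The grey cloud runs from upper left to lower right, and 20 of the 36 genes lie in the quadrants of opposite sign, with sox11a alone past a dotted line.

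Distances between arrays can also be read at these genes alone. The median fold between cold 1 and cold 2 was 1.17 over the 36 genes and 1.29 over all kept probe sets, and between normal 1 and normal 2 it was 1.25 and 1.33. Arrays of the same condition were at least 2-fold apart at her6, id3 and sox11a in cold and at id1 and sox11a in normal, and a cold and a normal array were that far apart only at sox11a, between cold 2 and normal 2.

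Upstream of these factors, Notch and BMP signalling were examined by lists. Of 17 measured genes of Notch signalling, 11 were above the filter and 0 were higher or lower in cold at an adjusted p under 0.05 from limma. The ligand gene dld, the one with the highest signal in the list, had 1298 and 1997 on cold 1 and cold 2, against 1681 and 1332 on normal 1 and normal 2, and the conditions overlapped. The glycosyltransferase gene lfng, which modifies Notch receptors, had 414 and 561 on the cold arrays, against 637 and 568 on the normal arrays. Both cold arrays were below both normal arrays there. Of the receptors, notch2 was above the filter, while notch1a, notch1b and notch3 were not. Of 13 measured genes of BMP signalling, 8 were above the filter and 0 passed the test. Its transducer smad1 had 174 and 231 on the cold arrays, against 231 and 184 on the normal arrays. Cold 2 and normal 1 were the high arrays there, as in smad5, but not in bmpr1aa or nog3 of the same list. Among markers of dividing cells, 5 of 7 were above the filter, and pcna, the sliding clamp of DNA replication, had 1251 and 1918 on the cold arrays, against 2134 and 1129 on the normal arrays. It was highest on normal 1 and lowest on normal 2, as were sox2, id1, id4, sox19b and tcf7l2, and its part in their values was not tested. The other 4 dividing cell markers above the filter, mcm2, mcm5, top2a and ccnb1, did not have this order. The 7 markers of the list summed to 1731 and 2448 on the cold arrays, against 2585 and 1642 on the normal arrays. Most of that sum was the signal of pcna on every array, so its order is that of pcna and not of the list.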

How the data were processed

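Total RNA was pooled from several brains, and labelled cRNA was hybridized to Affymetrix Zebrafish Genome Arrays. The authors scanned the arrays and deposited 1 MAS5 signal (intensity, linear scale) for each of 15617 probe sets. The scaling target, the detection calls and the software version were not given in the sources used here. MAS5 scales each array as a whole, which hides a shift shared by most transcripts. All 4 sample columns were used.

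Control probe sets (115) were removed, signals were taken to log2, and the 9301 of 15502 probe sets at or above the 40th percentile of mean log2 signal were kept. Conditions were compared unpaired with limma 3.58.1 (R 4.3.3; eBayes with a variance trend, Benjamini-Hochberg over all kept probe sets, threshold 0.05). The fit was tested on simulated arrays with known changes and independent noise. The arrays here did not group by their labels. That run therefore does not tell which changes could be found at these genes. The permutation-based SAM of the study's methods was not run. Precision is limited by the number of arrays, 2 per condition. Symbols came from the platform annotation, where 10795 probe sets had 1 symbol, 135 several and 4572 none. All 58 members had the same symbol in a current gene table (assembly GRCz12tu, used for names only). The settings also tried were median centring, quantile normalization, 16 added before the log, the 60th percentile or no filter, eBayes without a trend, a replicate block, each array left out, the lowest probe set per gene and every probe set of the members.

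Signals are printed for members past 2-fold within a set, the 6 with the smallest p and the 4 per role group with the highest mean signal. Signals of other members, such as sox3, sox9b, ascl1a and neurod2, are also printed. Those members were named after their values had been seen. Members, role groups and lists were chosen with earlier results of these data known.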

Additional observations from a re-analysis of the deposited data

How the results depend on the processing

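The count of member genes called by limma was 0 under every alternative that kept all arrays. It was taken over 36 genes, or 58 with no filter and 27 at the 60th percentile. With the lowest probe set per gene it was taken over 29, and over 49 probe sets with every one counted. The count over all probe sets was 0 except under crossed numbers. Without any 1 array both counts were 0 (lowest 0 and highest 0), where a lone array of a condition was assumed to vary like the other condition. With the replicate number as a block, 0 of 9301 probe sets and 0 of the 36 genes were called, and 39 probe sets had an unadjusted p under 0.05, against 46 without the block. Deviations of same-numbered arrays from their condition means had a correlation of -0.30, and with the numbers crossed, an alternative chosen after seeing the data, 1 probe set and 0 of the 36 genes were called.

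Leaving out 1 array moved the median log2 difference between -0.01 and 0.05 for progenitor genes, 0.04 and 0.31 for proneural and neuronal genes and -0.07 and 0.18 for oligodendrocyte lineage genes, and the last median was 0.27 at the 60th percentile filter, where 2 genes remained. The difference of sox11a ranged from -0.76 to 0.37, that of sox11b from 0.07 to 0.66 and that of hey1 from -0.0046 (without normal 1) to 0.65 over the arrays left out. The count of genes past 2-fold in set 2, 1 as reported, was 0 with the lowest probe set per gene and 2 with every probe set counted, sox11a and sox11b then being past it. Detection calls were not used, so genes near the filter are limited by background that cannot be read from these values.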

Other observations

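Probe sets that the platform annotation pairs with several symbols were not counted as members, and 3 of them carried her4 or her15 genes. The probe set shared by her4.1, her4.3 and her4.5 had signals of 176 and 136.5 on cold 1 and cold 2, against 168 and 181 on normal 1 and normal 2. A probe set paired with her4.2, her4.3 and her4.5 was below the filter, with 77.0 and 63.6 on the cold arrays, against 68.3 and 86.7 on the normal arrays. The probe set listed with her15.2 under 2 gene IDs had 119.5 and 86.1 on the cold arrays, against 97.7 and 123 on the normal arrays. In all 3, cold 2 was the lowest array and normal 2 the highest.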
